A study of Homo sapiens with 12 samples.

Results

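The TAL1 circuit is the group of transcription factors around which the regulatory programme of many T cell acute lymphoblastic leukaemias is built. It was taken here as 10 genes chosen by symbol: TAL1, LMO1, LMO2, LYL1, GATA3, RUNX1, MYB, TCF3, TCF12 and ARID5B. All 10 were found in both deposited tables, among 55514 gene symbols in the first, 44389 in the second and 43805 in both.

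Expression was measured by RNA sequencing in 12 libraries of Jurkat cells, an established human T cell acute lymphoblastic leukaemia line in which TAL1 is active. The first table held 3 libraries titled Hobit, the protein that ZNF683 encodes, and 3 libraries titled Mock. The genotype of the former is given as doxycycline-induced ZNF683, and they are called ZNF683 here. The second held 3 Dox+ and 3 Dox- libraries, also titled Hobit, grown with and without doxycycline at 1 ug/uL as the labels write it. All groups shared the Jurkat background and were grown in RPMI medium with fetal calf serum. The labels give neither the promoter of the inducible construct nor whether the line is 1 clone. They leave open whether doxycycline was added to the Mock cells, so in the first comparison ZNF683 and doxycycline cannot be told apart. In the second comparison doxycycline differed between the groups and every library was titled Hobit. There too doxycycline and ZNF683 cannot be told apart. Values are TPM, an abundance per transcript length scaled to a common total in each library, with mean ± SD and n = 3 libraries. No label states that the replicates were grown separately, and a p-value here reflects only how far these libraries scatter, which may be technical. The depth of the libraries is unknown from TPM.

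TAL1 is a basic helix-loop-helix factor that is normally silenced as thymocytes mature and is switched on ectopically in this leukaemia. It binds DNA at E-box motifs as a heterodimer with an E protein such as TCF3 or TCF12. LMO1 or LMO2, which carry no DNA-binding domain, and LDB1 bridge that dimer to GATA3, and RUNX1, MYB and ARID5B occupy many of the same enhancers. The factors are known to bind enhancers of their own genes, so that the circuit is described as a positive feedback loop.

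Libraries 1 and 2 of Dox- stood apart from the other 10. In library 1 a single transcript, AL135790.1, took 50.7% of all TPM, against 12.8% in Dox- library 2 and 4.94% to 10.5% in the rest, which lowers every other value in that library. Dox- library 2 held 637 TPM of HSPA6, a stress-inducible HSP70 chaperone, where Dox- libraries 1 and 3 held 0.113 and 0.341. Values were therefore also compared after median-of-ratios scaling, which divides each library by the median ratio of its genes to their geometric mean over the libraries of the table. Its factor was 0.580 for Dox- library 1, 0.999 for Dox- library 2, 1.20 for Dox- library 3 and 1.13 to 1.15 for Dox+, and 0.933 to 1.04 in the first table. All 10 T cell markers checked were expressed in every library, summing to 4332 to 4714 TPM in ZNF683, 4078 to 4728 in Mock, 3651 to 3952 in Dox+ and 1598 to 3231 in Dox-. Of the markers of other lineages, the B cell gene CD79A (8.90 to 54.7 TPM) and the myeloid gene CST3 (16.5 to 75.0 TPM) had the highest means in each group. The stromal and epithelial markers summed to 4.95 to 6.95 TPM in ZNF683, 5.42 to 8.05 in Mock, 2.24 to 2.56 in Dox+ and 1.57 to 19.6 in Dox-. The B cell genes MS4A1 and CD79B and the other 4 myeloid markers were under 1 TPM in every library in which they were listed.

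The circuit was expressed at very unequal levels. TCF12 had the highest mean in all 4 groups, at 172 ± 25.6 TPM in ZNF683, 163 ± 11.5 in Mock, 165 ± 16.6 in Dox+ and 124 ± 44.8 in Dox-. LMO1, LYL1 and LMO2 were the lowest in that order in all 4 groups, each separated from its neighbours. In ZNF683 the order was TCF12, GATA3, TCF3, TAL1, MYB, ARID5B, RUNX1, LMO1, LYL1 and LMO2, and only TCF3, TAL1 and MYB overlapped with their neighbours. In Mock, GATA3 again came second and the 5 genes TCF3, RUNX1, ARID5B, TAL1 and MYB followed with overlapping ranges. In Dox+ the order was TCF12, then GATA3 and MYB overlapping, then TAL1, then RUNX1, TCF3 and ARID5B overlapping. In Dox- each range from TCF12 to ARID5B overlapped the next in the order of means, although TCF12 was the highest member in every Dox- library and its range lay above those of GATA3, TCF3, TAL1 and ARID5B.

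**Figure D1:**
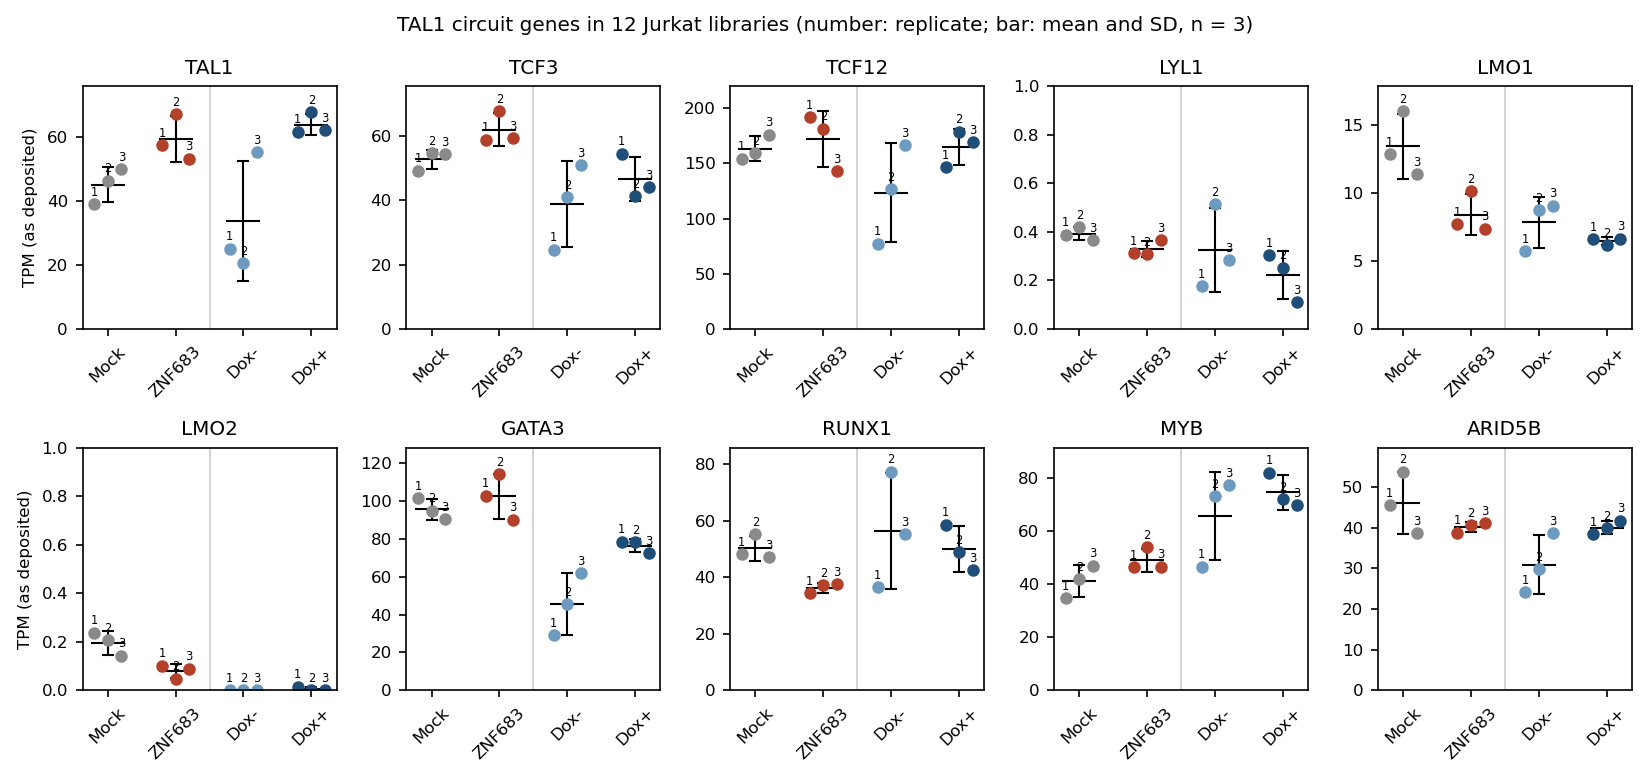
TPM as deposited (vertical axis) of the 10 circuit genes in each of the 12 libraries, with a panel per gene, columns for ZNF683, Mock, Dox+ and Dox-, numbered points for replicates and bars for the mean and SD of 3 libraries. TAL1 lay higher in ZNF683 (53.3 to 67.3) than in Mock (39.1 to 50.1), LMO1 and RUNX1 lay lower, and LMO2 and LYL1 stayed under 1 TPM throughout.

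No circuit gene passed the test in either comparison. Each table was fitted with limma on log2(TPM + 1) over all genes that averaged 1 TPM or more, with Benjamini-Hochberg adjustment and a threshold of 0.05. Of the 10 members 8 were tested, since LMO2 and LYL1 were below that mean. For ZNF683 against Mock 0 of 8 passed, beside 5 of 16588 genes in all (0.0301%), and at an unadjusted p under 0.05 there were 3 members and 2152 genes. For Dox+ against Dox- 0 of 8 passed, beside 60 of 15148 genes (0.396%), and at an unadjusted p under 0.05 there were 1 member and 960 genes. In that fit each gene was given the spread fitted at its mean level. The members' standard errors there, 0.42 to 0.43, thus do not reflect their own scatter. What follows gives each member's values and says whether the 3 libraries of a group overlapped with the other 3. Being bulk RNA, these values cannot tell fewer expressing cells from less RNA per cell.

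TAL1 (chromosome 1, 47216290 to 47232220, minus strand, GENCODE v29 on GRCh38) was higher in every ZNF683 library than in every Mock library. It stood at 57.6, 67.3 and 53.3 TPM in ZNF683 and at 39.1, 46.4 and 50.1 TPM in Mock, with means of 59.4 ± 7.19 and 45.2 ± 5.56 and a ratio of means of 1.31. The groups did not overlap, but ZNF683 library 3 and Mock library 3 came close to each other. The fitted log2 change was 0.39 ± 0.13 (SE), with a limma adjusted p of 0.335 and an unadjusted p of 0.0186.

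TAL1 was also higher in every Dox+ library than in every Dox- library. It stood at 61.8, 67.8 and 62.3 TPM in Dox+ and at 25.2, 20.7 and 55.3 TPM in Dox-, with means of 64.0 ± 3.33 and 33.7 ± 18.8. The Dox+ libraries were close together, and the Dox- group was spread widely, its library 3 near Dox+ and its libraries 1 and 2 far below. The log2 change was 1.03 ± 0.43 with a limma adjusted p of 0.653. After median-of-ratios scaling the values were 53.6, 59.1 and 55.1 in Dox+ and 43.4, 20.7 and 46.2 in Dox-, which still did not overlap, and the log2 change was 0.67 ± 0.30 with a limma adjusted p of 0.752. Libraries were left out on values as deposited, without scaling. Without Dox- libraries 1 and 2 together the change was 0.21 ± 0.12, the remaining Dox- library being assumed to vary like the Dox+ group. Leaving out Dox- library 3 instead gave 1.45 with a limma adjusted p of 0.0342, on the libraries that stood apart. In that fit 2788 of 15127 genes passed (18.4%), 2754 of them higher, and the median change of all genes was 0.50. Without library 1 alone the TAL1 change was 0.89 and without library 2 alone it was 0.76.

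TCF3 (chromosome 19, 1609290 to 1652605), which encodes the E proteins E12 and E47, was higher in every ZNF683 library than in every Mock library by a small margin. Its level was 58.9, 67.8 and 59.2 TPM in ZNF683 and 49.2, 54.6 and 54.3 TPM in Mock. The log2 change was 0.23 ± 0.10 with a limma adjusted p of 0.396. In the second table TCF3 stood at 54.5, 41.3 and 44.2 TPM in Dox+ and at 24.7, 41.0 and 50.9 TPM in Dox-. Those groups overlapped, and the log2 change of 0.31 ± 0.43 became -0.05 ± 0.14 after scaling.

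TCF12 (chromosome 15, 56918623 to 57299281), which encodes the E protein HEB, showed overlapping groups in both tables. It stood at 192, 182 and 143 TPM in ZNF683 and at 154, 159 and 176 TPM in Mock, a log2 change of 0.07 ± 0.13. In Dox+ it stood at 146, 179 and 169 TPM and in Dox- at 77.2, 127 and 167 TPM, a log2 change of 0.48 ± 0.43 that became 0.11 ± 0.13 after scaling. TCF12 thus combined the highest level of the circuit with the smallest fitted change of the 8 tested members in the first table.

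LMO1 (chromosome 11, 8224304 to 8268716, minus strand), which encodes a LIM-only bridging protein, was lower in every ZNF683 library than in every Mock library. It stood at 7.69, 10.1 and 7.37 TPM in ZNF683 and at 12.8, 16 and 11.4 TPM in Mock, with means of 8.39 ± 1.51 and 13.4 ± 2.37 and a ratio of means of 0.627. This was the opposite direction to TAL1, its partner in the complex. The log2 change was -0.61 ± 0.16, the largest in size of the 8 tested members in this comparison, with a limma adjusted p of 0.283 and an unadjusted p of 0.00515.

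LMO1 stood at 6.58, 6.14 and 6.62 TPM in Dox+ and at 5.69, 8.71 and 9.05 TPM in Dox-. As deposited these groups overlapped through Dox- library 1, the library with the inflated transcript, and the log2 change was -0.22 ± 0.42. After scaling LMO1 stood at 5.71, 5.35 and 5.85 in Dox+ and at 9.81, 8.72 and 7.56 in Dox-, so that the groups did not overlap and the log2 change was -0.54 ± 0.16 with a limma adjusted p of 0.752. As deposited, with Dox- libraries 1 and 2 both left out, the log2 change was -0.43 ± 0.16, the lone Dox- library lying above all 3 Dox+ libraries.

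The related genes LMO2 and LYL1 were near the bottom of the scale. LMO2 (chromosome 11, 33858576 to 33892289), the other LIM-only oncogene of this leukaemia, stood at 0.102, 0.0488 and 0.0889 TPM in ZNF683 and at 0.237, 0.206 and 0.143 TPM in Mock, without overlap. In the second table it was listed at 0.015 TPM in Dox+ library 1 and at 0 in the other 5 libraries. LYL1 (chromosome 19, 13099033 to 13103161), the closest relative of TAL1, stood at 0.311, 0.307 and 0.367 TPM in ZNF683 and at 0.388, 0.420 and 0.366 TPM in Mock. In the second table LYL1 ranged from 0.110 to 0.303 TPM in Dox+ and from 0.176 to 0.515 TPM in Dox-. Neither gene reached the level at which genes were tested.

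GATA3 (chromosome 10, 8045378 to 8075203), the zinc finger factor that the LIM-only protein links to TAL1, did not separate ZNF683 from Mock. It stood at 103, 114 and 90.0 TPM in ZNF683 and at 101, 94.8 and 90.5 TPM in Mock, a log2 change of 0.09 ± 0.12 with a limma adjusted p of 0.717. In the second table GATA3 was higher in every Dox+ library, at 78.5, 78.0 and 72.4 TPM against 29.1, 45.6 and 61.8 TPM in Dox-. The log2 change there was 0.80 ± 0.43 with a limma adjusted p of 0.737.

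Scaling brought the Dox- values of GATA3 together. They became 50.3, 45.7 and 51.7 against 68.1, 68.0 and 64.0 in Dox+, and the log2 change was 0.43 ± 0.12 with an unadjusted p of 0.00876 and a limma adjusted p of 0.752. Each Dox+ library stayed above each Dox- library. As deposited, the log2 change without Dox- libraries 1 and 2 was 0.30 ± 0.12, on 1 remaining Dox- library. Without Dox- library 1 alone it was 0.51 as deposited. Leaving out Dox- library 3 as deposited gave 1.04 with a limma adjusted p of 0.0402, beside 18.4% of all genes past the threshold.

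RUNX1 (chromosome 21, 34787801 to 36004667, minus strand), the DNA-binding partner of CBFB, was lower in every ZNF683 library than in every Mock library. It stood at 34.4, 37.3 and 37.5 TPM in ZNF683 and at 48.3, 55.3 and 47.2 TPM in Mock, with means of 36.4 ± 1.78 and 50.2 ± 4.39. The gap between the groups was wider than the range of either group. The log2 change was -0.45 ± 0.10 with a limma adjusted p of 0.271 and an unadjusted p of 0.00238, the lowest among the members.

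In the second table RUNX1 stood at 58.6, 49.0 and 42.5 TPM in Dox+ and at 36.6, 77.5 and 55.4 TPM in Dox-. These groups overlapped, and the log2 change was -0.12 ± 0.43. After scaling RUNX1 stood at 50.8, 42.6 and 37.6 in Dox+ and at 63.1, 77.6 and 46.3 in Dox-, still overlapping, with a log2 change of -0.48 ± 0.22 and a limma adjusted p of 0.752. As deposited, the sign turned to 0.14 without Dox- library 2, in which RUNX1 was highest.

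MYB (chromosome 6, 135181315 to 135219173), a factor of proliferating lymphoid precursors, overlapped between groups in both tables. It stood at 46.5, 53.9 and 46.6 TPM in ZNF683 and at 34.8, 41.8 and 47.0 TPM in Mock, a log2 change of 0.25 ± 0.13 with a limma adjusted p of 0.431. Only Mock library 3 reached into the ZNF683 range. In Dox+ MYB stood at 81.9, 72.0 and 69.7 TPM and in Dox- at 46.6, 73.1 and 77.3 TPM, and its log2 change of 0.21 ± 0.43 became -0.15 ± 0.14 after scaling.

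ARID5B (chromosome 10, 61901300 to 62096944), an AT-rich DNA-binding protein reported at enhancers of the TAL1 complex in this leukaemia, also overlapped in both tables. It stood at 38.8, 40.6 and 41.2 TPM in ZNF683 and at 45.6, 53.8 and 38.6 TPM in Mock, a log2 change of -0.18 ± 0.13 with a limma adjusted p of 0.534. In Dox+ it stood at 38.5, 39.8 and 41.7 TPM and in Dox- at 24.1, 29.9 and 38.6 TPM, a log2 change of 0.39 ± 0.43 that became 0.03 ± 0.16 after scaling. The highest Dox- library and the lowest Dox+ library were nearly equal.

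Counted together, 4 of the 8 tested members had groups that did not overlap between ZNF683 and Mock, beside 17.2% of all genes tested. The 2 higher members were TAL1 and TCF3, beside 8.71% of genes, and the 2 lower ones were LMO1 and RUNX1, beside 8.51%. After scaling these 4 members still did not overlap, beside 19.5% of genes (9.43% higher and 10.1% lower). For Dox+ against Dox- 2 of 8 did not overlap, TAL1 and GATA3, both higher in Dox+, beside 8.8% of genes in either direction. After scaling LMO1 joined them as lower, making 3 of 8 beside 11.7% (5.8% higher and 5.93% lower). The members were chosen with results of these data known, so these shares describe them and test nothing.

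TAL1 was higher without overlap in both comparisons, as were 1.35% of genes tested in both tables, or 1.24% after scaling. No member was lower without overlap in both as deposited, as 0.0829% of genes were. After scaling LMO1 was, together with 0.778% of genes. The median change of the 8 members was 0.08 for ZNF683 against Mock, where that of all genes was 0.03, and 0.35 for doxycycline, where that of all genes was 0.32. After scaling the doxycycline medians were -0.01 for the members and 0.00 for all genes, with 4 members positive and 4 negative.

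**Figure D2:**
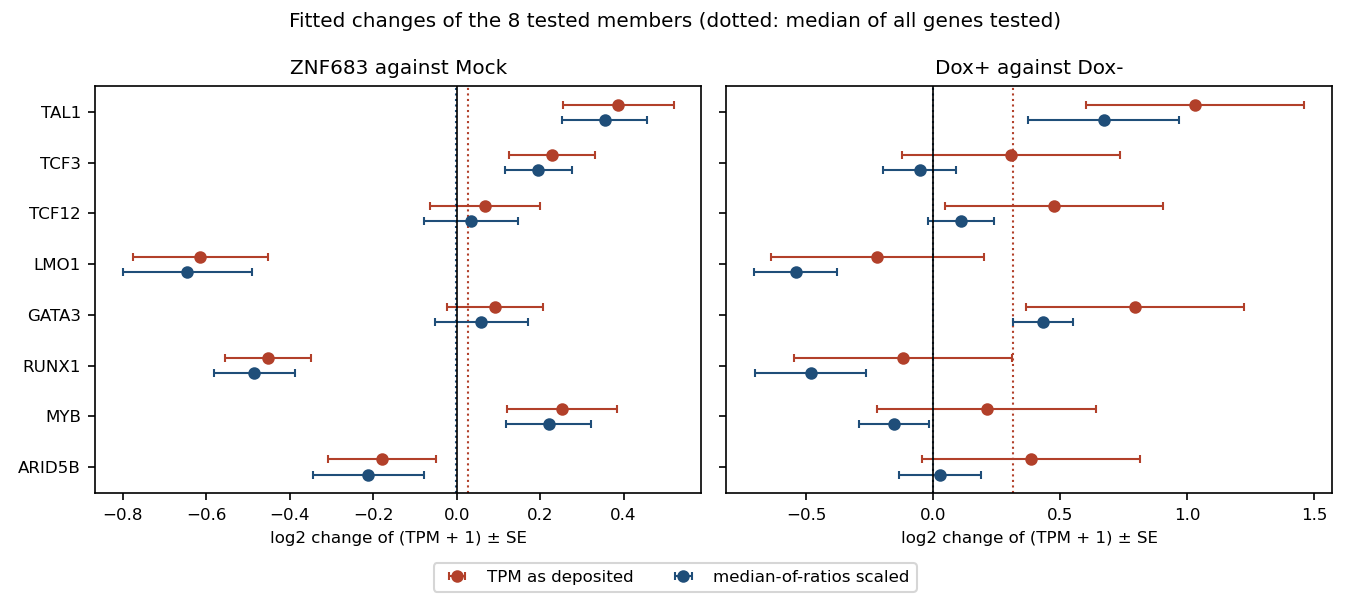
Fitted log2 change of (TPM + 1) with its standard error (horizontal axis) for the 8 tested members, ZNF683 against Mock on the left and Dox+ against Dox- on the right, from deposited TPM (red) and after median-of-ratios scaling (blue), with dotted lines at the median of all genes tested. On the left TAL1 (0.39) lay opposite to LMO1 (-0.61) and RUNX1 (-0.45) under both scalings, and on the right scaling moved TAL1 from 1.03 to 0.67 and LMO1 from -0.22 to -0.54.

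Whether the changes differed between the comparisons was tested directly as a contrast over all 12 libraries. None of the 8 members passed in limma, beside 2 of 14468 genes (0.0138%), and at an unadjusted p under 0.05 there were 543 genes and no member. The ZNF683 change minus the doxycycline change was -0.65 ± 0.43 for TAL1, -0.70 ± 0.38 for GATA3 and -0.57 ± 0.35 for ARID5B, each with a limma adjusted p of 0.876. For MYB it was 0.04 ± 0.36 with a limma adjusted p of 0.981. These values are as deposited, where the median over all genes was -0.28 and 19.2% of genes were positive. After scaling that median was 0.003. The scaled changes in the 2 comparisons were 0.35 and 0.67 for TAL1, 0.06 and 0.43 for GATA3, and -0.21 and 0.03 for ARID5B. For MYB they were 0.22 and -0.15. Without Dox- library 3 the contrast as deposited passed for TAL1 at -1.06, GATA3 at -0.95 and ARID5B at -0.74. The limma adjusted p were 0.0165, 0.0303 and 0.0446. In that fit 2550 of 14423 genes passed (17.7%), 2526 of them lower, and the median of all genes was -0.48. Without Dox- libraries 1 and 2 together the contrast was 0.18 for TAL1.

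The balance of the members was followed through ratios of (TPM + 1) within each library, in which the share taken by another transcript largely cancels for well expressed genes. It does not cancel for LMO2 and LYL1, whose terms are mostly pseudocount. Over 20 tests of 10 pairs, the smallest two-sided exact permutation p that 3 against 3 libraries allow is 0.1, which became 0.143 after Benjamini-Hochberg adjustment, so no ratio could pass the threshold. The ratio of TAL1 to RUNX1 was 1.66, 1.78 and 1.41 in ZNF683 and 0.814, 0.842 and 1.06 in Mock, a log2 difference of 0.84 with an exact permutation p of 0.1. In Dox+ it was 1.05, 1.38 and 1.45 and in Dox- 0.696, 0.276 and 0.999, a log2 difference of 1.15 with an exact permutation p of 0.1. TAL1 thus exceeded RUNX1 in all 3 ZNF683 and all 3 Dox+ libraries, and in Mock and Dox- it did so in Mock library 3 alone.

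The ratio of TAL1 to LMO1, a pair added after the values were seen, separated the groups as well. It was 6.75, 6.14 and 6.49 in ZNF683 and 2.90, 2.79 and 4.13 in Mock, a log2 difference of 1.00. In Dox+ it was 8.28, 9.63 and 8.31 and in Dox- 3.91, 2.23 and 5.60, a log2 difference of 1.25. Each ZNF683 library lay above each Mock library and each Dox+ library above each Dox- library, and the exact permutation p was 0.1 each time. In ZNF683 against Mock this separation follows from the single genes, as TAL1 was higher and LMO1 lower without overlap. The same holds there for TAL1 to RUNX1. LMO1 to RUNX1, also added, overlapped in both tables, with log2 differences of -0.16 and -0.10 and exact permutation p of 0.3 and 0.8.

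TAL1 relative to its E proteins, the sum of TCF3 and TCF12, moved less. The ratio was 0.233, 0.273 and 0.267 in ZNF683 and 0.196, 0.220 and 0.221 in Mock, a log2 difference of 0.28. In Dox+ it was 0.311, 0.311 and 0.295 and in Dox- 0.255, 0.128 and 0.258, a log2 difference of 0.59. The groups did not overlap in either table. In all 12 libraries the RNA of the 2 E protein genes together exceeded that of TAL1 per length, and protein was not measured. Within the E proteins, TCF3 to TCF12 overlapped in both tables, with log2 differences of 0.16 and -0.17 and an exact permutation p of 0.4 each.

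GATA3 and MYB also stood higher relative to RUNX1. GATA3 to RUNX1 was 2.93, 3.0 and 2.36 in ZNF683 and 2.08, 1.70 and 1.90 in Mock, and 1.33, 1.58 and 1.69 in Dox+ and 0.802, 0.594 and 1.11 in Dox-. MYB to RUNX1 was 1.34, 1.43 and 1.24 in ZNF683 and 0.726, 0.761 and 0.995 in Mock, and 1.39, 1.46 and 1.62 in Dox+ and 1.27, 0.944 and 1.39 in Dox-. These groups did not overlap, though the highest Dox- and lowest Dox+ values of MYB to RUNX1 were equal to 3 digits. The log2 differences were 0.54 and 0.91 for GATA3 and 0.70 and 0.33 for MYB, with an exact permutation p of 0.1 each.

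Of the remaining pairs, TAL1 to GATA3 was higher in ZNF683 than in Mock by a log2 of 0.30 without overlap and overlapped between Dox+ and Dox-, with exact permutation p of 0.1 and 0.9. TAL1 to LYL1 was higher by 0.46 and 1.14 without overlap, with p of 0.1 in each exact permutation test, on LYL1 values that were mostly pseudocount. LMO1 to LMO2 was lower by 0.47 in ZNF683 than in Mock with an exact permutation p of 0.1, and with a pseudocount of 0.1 in place of 1 the difference was 0.05 in the other direction. In Dox- library 3 alone, the Dox- library that did not stand apart, TAL1 to RUNX1, TAL1 to LMO1, TAL1 to the E proteins and GATA3 to RUNX1 were still below every Dox+ library.

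**Figure D3:**
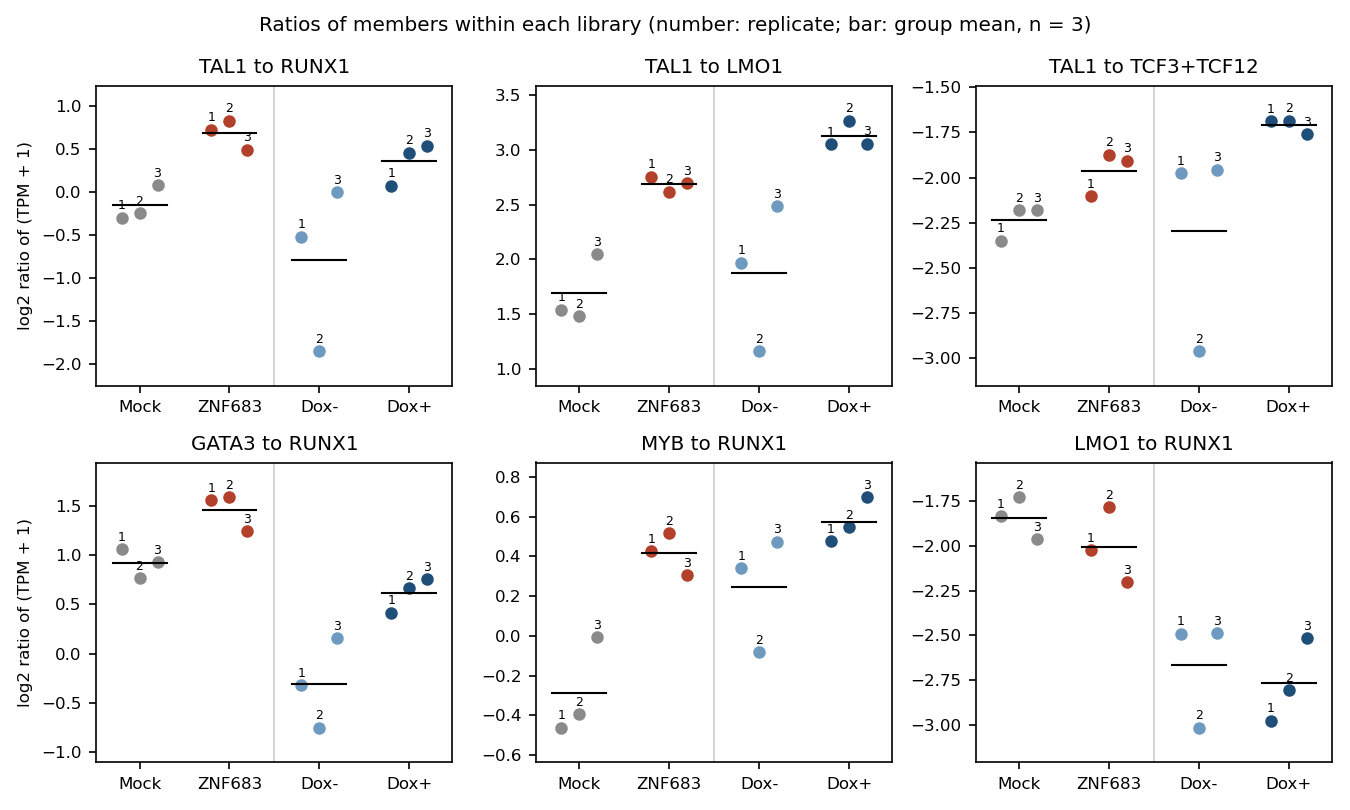
Log2 ratio of (TPM + 1) between pairs of members within each library (vertical axis), with columns for ZNF683, Mock, Dox+ and Dox-, numbered points for replicates and bars for the mean of 3 libraries. TAL1 to RUNX1 and TAL1 to LMO1 separate ZNF683 from Mock (log2 differences of 0.84 and 1.00) and Dox+ from Dox- (1.15 and 1.25), while LMO1 to RUNX1 overlaps in both.

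The promoters of TAL1, LMO1 and RUNX1 are shown because these members lay in opposite directions in ZNF683 against Mock. They are the 250 bases before a transcription start in RefSeq (GRCh38.p14), written along the minus strand on which all 3 genes lie. TAL1 has 2 such starts in the table, the second within the annotated span of the gene, as is that of RUNX1. Capitals mark matches, on either strand, to CANNTG (the E-box that TAL1 and E proteins bind), GATAA (GATA factors), TGTGGT (RUNX factors) or TAACNG (MYB), with overlapping matches each counted.
TAL1 start 1, chr1:47232336-47232585: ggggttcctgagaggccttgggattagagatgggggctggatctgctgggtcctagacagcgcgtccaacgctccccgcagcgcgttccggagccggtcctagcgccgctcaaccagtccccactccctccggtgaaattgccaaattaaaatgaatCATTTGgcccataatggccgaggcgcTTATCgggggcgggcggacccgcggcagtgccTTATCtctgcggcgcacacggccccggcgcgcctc
TAL1 start 2, chr1:47231716-47231965: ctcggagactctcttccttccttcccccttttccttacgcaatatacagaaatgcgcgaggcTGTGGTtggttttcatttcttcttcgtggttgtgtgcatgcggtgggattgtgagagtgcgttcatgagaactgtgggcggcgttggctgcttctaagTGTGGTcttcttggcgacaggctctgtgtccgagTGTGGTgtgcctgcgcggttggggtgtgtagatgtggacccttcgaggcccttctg
LMO1, chr11:8268788-8269037: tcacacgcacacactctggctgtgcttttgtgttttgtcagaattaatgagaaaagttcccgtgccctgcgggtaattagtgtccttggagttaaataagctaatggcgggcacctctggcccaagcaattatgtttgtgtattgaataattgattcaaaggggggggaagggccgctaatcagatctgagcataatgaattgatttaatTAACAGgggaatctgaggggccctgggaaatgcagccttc
RUNX1, chr21:34888700-34888949: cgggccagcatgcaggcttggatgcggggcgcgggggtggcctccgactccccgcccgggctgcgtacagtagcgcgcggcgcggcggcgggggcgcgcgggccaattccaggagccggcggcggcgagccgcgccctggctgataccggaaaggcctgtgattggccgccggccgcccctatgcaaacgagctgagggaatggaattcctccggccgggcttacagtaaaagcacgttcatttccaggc
The first TAL1 promoter held 1 E-box, CATTTG at -93 from the start, and 2 GATA matches, TTATC on the opposite strand at -67 and -35. The second held 3 RUNX matches, TGTGGT at -188, -90 and -56. LMO1 held 1 MYB match, TAACAG at -40, and RUNX1 held none of the 4 motifs in this window.

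Over the whole circuit 20 promoters were found, of 9 members. An E-box was in 5 of them, beside 61.8% of all 35116 promoters of that length. GATAA was in 3, beside 20.4%, TGTGGT in 2, beside 11%, and TAACNG in 3, beside 17.6%. Several of these promoters belong to the same gene, with 6 for GATA3 and 5 for TCF12. A match is only a run of letters and says nothing about binding in these cells.

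The other proteins of the TAL1 complex were examined next as a list of 13 partners, all of which were tested. In ZNF683 against Mock 0 of 13 passed, 7 had positive and 6 negative changes, and the median change was 0.03, as it was for all genes. HDAC1, SSBP2 and HDAC2, 2 deacetylases and a cofactor that stabilises LDB1, were the most abundant. SSBP2 stood at 412, 449 and 380 TPM in ZNF683 and at 342, 356 and 354 TPM in Mock, without overlap, with a log2 change of 0.24 ± 0.11 and a limma adjusted p of 0.391. The corepressor gene CBFA2T3 was likewise higher in every ZNF683 library, by 0.25 ± 0.12, and the acetyltransferase gene CREBBP lower in every one, by a log2 of -0.27 ± 0.14. LDB1 itself overlapped, with a change of -0.07 ± 0.19.

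In Dox+ against Dox- 0 of 13 partners passed and 10 had positive changes, with a median of 0.41 as deposited and 0.08 after scaling. CBFB, the RUNX1 partner, was higher in every Dox+ library (0.58 ± 0.43), as was CBFA2T3 (0.63 ± 0.42), and after scaling no partner was higher without overlap. SSBP2 had a change of 0.68 ± 0.43 with overlapping groups. After scaling LDB1 had a change of -0.80 ± 0.34 and CREBBP, lower in every Dox+ library, one of -0.82 ± 0.32, each with a limma adjusted p of 0.752.

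Inhibitors of the E proteins were followed as part of a list of 5 with TCF4. ID proteins lack a basic region and keep E proteins off DNA. ID2 was higher in every ZNF683 library, at 5.45, 9.07 and 7.49 TPM against 4.26, 4.97 and 5.15 TPM in Mock, a log2 change of 0.50 ± 0.17 with a limma adjusted p of 0.336. In the second table ID2 was at 53.9 TPM in Dox- library 2 and between 1.55 and 6.63 TPM in the other 5, so that its direction there rests on that library.

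ID1 stood at 16.2, 25 and 24.4 TPM in ZNF683 and at 14.8, 16.8 and 16.2 TPM in Mock, overlapping, with a log2 change of 0.41 ± 0.17. It was higher in every Dox+ library, at 14.7, 14.5 and 14.7 TPM against 3.95, 3.38 and 11.6 TPM in Dox-, a log2 change of 1.27 ± 0.42 with a limma adjusted p of 0.303. ID3 was the most abundant, at 329 to 470 TPM in ZNF683, and overlapped in both tables. The E protein gene TCF4 was higher in every Dox+ library as deposited (0.48 ± 0.41) and had a change of -0.22 ± 0.15 in ZNF683 against Mock. After scaling TCF4 overlapped between Dox+ and Dox- (0.22 ± 0.19) and was lower in every ZNF683 library than in Mock (-0.25 ± 0.13). Of the 4 genes of this list that were tested none passed in either comparison, and ID4 was below the level tested.

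Paralogs of the members were followed as a further list. Of 11 paralogs 7 were tested and none passed, with median changes of 0.10 and 0.27, the latter -0.07 after scaling. TAL2, NHLH1 and GATA1 were under 1 TPM in every library. LMO4 was the most abundant, at 30.1 to 37.8 TPM in ZNF683 and 29.6 to 32.9 TPM in Mock. It was thus present at a higher level per length than LMO1. RUNX3 was higher in every ZNF683 library as deposited, at 6.72, 5.44 and 5.22 TPM against 4.89, 4.22 and 4.28 TPM in Mock. Its log2 change was 0.31 ± 0.13 with a limma adjusted p of 0.377, opposite to RUNX1 at a far lower level. After scaling the RUNX3 groups overlapped, with a change of 0.28 ± 0.13.

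Of 9 genes reported as activated by the TAL1 complex in leukaemia cells 8 were tested and none passed in either comparison, with 6 positive and 2 negative changes and a median of 0.13 in ZNF683 against Mock. The groups did not overlap for 2 of the 8 with ZNF683 higher and for 1 with ZNF683 lower, beside 8.71% and 8.51% of all genes. TRAF3, a signalling adaptor, was higher in every ZNF683 library, at 7.72, 9.82 and 8.67 TPM against 4.83, 5.25 and 6.06 TPM, a log2 change of 0.61 ± 0.13 with a limma adjusted p of 0.261. CDK6, a cell cycle kinase, was also higher in every ZNF683 library, at 286, 257 and 255 TPM against 225, 218 and 251 TPM, a log2 change of 0.20 ± 0.11 with a limma adjusted p of 0.432.

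In Dox+ against Dox- all 8 changes were positive, with a median of 0.32, as for all genes, and after scaling 3 were positive with a median of -0.02. None of the 8 separated the groups there. ALDH1A2, a retinoic acid synthesis gene that TAL1 is known to activate, had a change of 0.81 ± 0.43 and overlapped through Dox- library 3 at 186 TPM. MYC, with a change of 0.79 ± 0.43, ranged from 31.8 to 273 TPM within Dox-. KIT was under 1 TPM in every library.

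Genes reported as targets of E proteins in thymocytes were followed as a list of 6, all tested. None passed in ZNF683 against Mock, where 2 changes were positive and 4 negative. RAG1, a recombinase subunit, stood at 1.54, 1.94 and 1.63 TPM in ZNF683 and at 3.50, 8.0 and 5.18 TPM in Mock, a log2 change of -1.22 ± 0.24 with an unadjusted p of 0.000797 and a limma adjusted p of 0.225. PTCRA, the pre-T cell receptor alpha chain, stood at 5.44, 6.14 and 6.59 TPM against 7.54, 10.0 and 8.27 TPM, a log2 change of -0.44 ± 0.13 with a limma adjusted p of 0.308. Both were lower in every ZNF683 library, whereas RAG2 (-0.05 ± 0.12) and CD4 (0.01 ± 0.12) were not.

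With doxycycline the same list had 5 positive changes of 6 and a median of 0.42, or 0.17 after scaling, and again none passed. PTCRA had a change of 0.75 ± 0.41 and RAG1 one of 0.15 ± 0.40, each with overlapping groups, so neither was lower in Dox+ as deposited.

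Other transcription factor oncogenes that define subtypes of this leukaemia were nearly absent. TLX1, NKX2-1, HOXA9, HOXA10 and OLIG2 were under 1 TPM in every library, as was TLX3 in the first table. MEF2C was tested in the first table only, at 0.772, 1.93 and 1.66 TPM in ZNF683 and 0.384, 0.931 and 0.409 TPM in Mock, overlapping, with a log2 change of 0.63 ± 0.23. TAL1 is fused to its neighbour STIL by deletion in some leukaemias, and STIL had changes of -0.03 and 0.16, unlike TAL1 in either comparison. CMPK1, a neighbour on the same side as STIL, had changes of 0.33 and 0.73 with overlapping groups as deposited, and after scaling it did not overlap in ZNF683 against Mock, at 0.30 ± 0.11. PDZK1IP1, the neighbour on the other side, was under 1 TPM in every library. GATA3-AS1, antisense to GATA3, was under 1 TPM in every library, and MYB-AS1 reached 2.42 TPM, far below MYB. Whether the strand of the reads was used is not given in the sources used here, so reads of these antisense pairs may not have been told apart.

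The higher TAL1 and GATA3 in Dox+ stood beside higher values of T cell markers, while markers of other lineages went both ways. All 10 T cell markers had positive changes in Dox+ against Dox-, with a median of 0.79 as deposited and 0.42 after scaling, and none passed. In 6 of 10 the groups did not overlap with Dox+ higher, beside 7.91% of all genes, and after scaling in 7 of 10, beside 5.8%. The B cell gene CD79A and the myeloid gene CST3 were also higher in every Dox+ library, with changes of 1.00 and 0.95 as deposited and 0.65 and 0.60 after scaling. The remaining tested markers of other lineages had negative changes as deposited, with overlapping groups. These were HBA1 (-0.92), HBA2 (-1.45), COL1A1 (-0.94) and KRT8 (-0.13), and after scaling HBA2 and KRT8 were lower in every Dox+ library. The part of these differences in the TAL1 and GATA3 values was not tested. In ZNF683 against Mock the same markers had a median of 0.10. In 3 of 10 the groups did not overlap with ZNF683 higher, beside 8.71% of genes, and after scaling in 2 of 10, beside 9.43%.

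**Figure D4:**
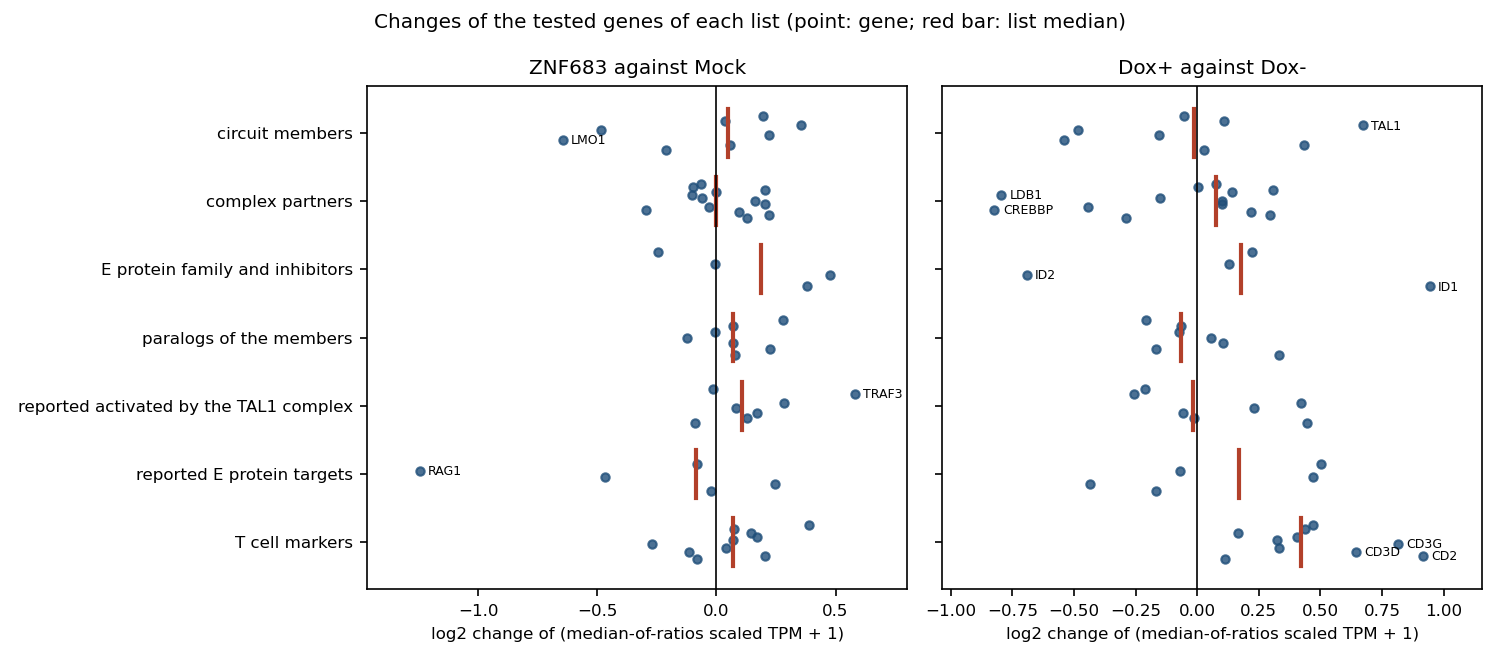
Log2 change of (median-of-ratios scaled TPM + 1) on the horizontal axis for each tested gene (point) of the circuit and 6 related lists, ZNF683 against Mock on the left and Dox+ against Dox- on the right, with a red bar at the median of the list. All 10 T cell markers lay above 0 on the right (median 0.42) while the 8 circuit members spread around -0.01, and RAG1 (-1.25) lay lowest on the left. Genes not reported here are not drawn, and the medians are over all tested genes of a list.

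Some markers of stress passed the test, while the sum of the stress and hypoxia markers overlapped between the groups in both comparisons. In ZNF683 against Mock HSPA6 fell, with a log2 change of -2.11 ± 0.18 and a limma adjusted p of 0.0105. The 6 stress and hypoxia markers summed to 223 to 311 TPM in ZNF683 and to 249 to 315 TPM in Mock. In Dox+ against Dox- 5 of the 6 passed as lower in limma and none did after scaling. Of these 5, ADM and AK4 did not overlap, whereas HSPA6, HSPA1A and HSPA1B overlapped, with HSPA6 at 637 TPM in Dox- library 2 alone. The sum of the 6 was 191 to 277 TPM in Dox+ and 94.9 to 4207 TPM in Dox-. The erythroid haemoglobin gene HBA2, at 14.8 TPM in Dox- library 2, also passed as lower in Dox+ as deposited, with overlapping groups and a limma adjusted p of 0.0437 that was 0.752 after scaling. The erythroid markers summed to at most 4.02 TPM in the first table and 2.29 TPM in Dox+ and reached 35.3 TPM in Dox- library 2, the library in which TAL1 had its lowest value of all. The part of these markers in the circuit values was not tested.

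The genes whose pattern over the 12 libraries was closest to TAL1 were LCP2, RASSF5 and RASSF2, among 9634 genes that averaged at least 5 TPM in both tables. Likeness was the root mean square difference in log2 (scaled TPM + 1) after centring each table, and it was 0.0909 for LCP2, 0.0937 for RASSF5 and 0.0937 for RASSF2, where TAL1 itself varied by 0.378 and the median gene differed by 0.382. LCP2 stood at 155, 150 and 125 TPM in ZNF683, at 111, 112 and 129 in Mock, at 122, 135 and 115 in Dox+ and at 47.2, 37.7 and 101 in Dox-. As deposited, LCP2 and TAL1 both had their lowest values in Dox- libraries 1 and 2. In the scaled values, from which likeness was computed, TAL1 was far below the others in Dox- library 2 alone. It stood there at 20.7, against 43.4 in Dox- library 1 and 46.2 in Dox- library 3.

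No circuit member was among those closest. GATA3 was nearest at 0.280, rank 2455, followed by TCF12 at 0.338 and TCF3 at 0.377. ARID5B and MYB stood at 0.401 and 0.409, near the median gene. LMO1 at 0.634 and RUNX1 at 0.655, ranks 8632 and 8759 of 9634, were among the genes least like TAL1 across these libraries.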

How the data were processed

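RNA sequencing libraries of Jurkat cells were compared in 2 tables of TPM, in which the authors deposited values per gene symbol. The tools kallisto 0.46.0 and DESeq2 1.22.2 appear in the submitters' processing notes without a role, and the genome build and transcript set are not given in the sources used here. Groups were taken from the sample titles. The 10 members, the lists of related genes and the tests were chosen with earlier results of these data known.

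The test was limma 3.58.1 (R 4.3.3) on log2(TPM + 1) for genes averaging 1 TPM or more in the 6 libraries of a table, with empirical Bayes moderation, a mean-variance trend, two-sided tests and Benjamini-Hochberg adjustment over all genes tested, at a threshold of 0.05. This scale understates changes of low genes. TPM holds no counts, so count models were not used and depth is unknown. The tables were fitted separately, and the difference between comparisons as a contrast over all 12 libraries. In the doxycycline table as deposited limma's prior degrees of freedom were infinite, which gives each gene the spread fitted at its mean level and no weight to its own. The fit was checked on simulated data. Ratios and tables were computed with Python 3.11.15, pandas 2.3.3 and scipy 1.17.1, and ratios were compared with two-sided exact permutation tests.

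Named genes were all members, and of each list the genes past the threshold, up to 3 per comparison with the smallest unadjusted p, up to 3 with the highest mean TPM and, by name, those under 1 TPM, as well as the 3 genes most like TAL1. LDB1, TCF4, RAG2 and CD4, among others, were named beyond this rule after their values were seen. Some genes of the lists are not reported here. Alternatives were another pseudocount, scaling, filter, moderation, array weights, a replicate block and leaving out libraries. Positions were looked up by symbol in GENCODE v29 (GRCh38), and promoters from RefSeq on GRCh38.p14.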

Additional observations from a re-analysis of the deposited data

How the results depend on the processing

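No member passed the threshold as deposited, and this count of 0 stayed 0 in each comparison under every alternative except those given here. Leaving out 1 library gave 0 to 2 members for doxycycline and 0 to 3 for the difference between the comparisons, in both cases highest without Dox- replicate 3. Without that library 18.4% and 17.7% of all genes tested passed, so the members passed there together with many others. Median-of-ratios scaling with array weights, chosen after seeing the data, gave 3 members for ZNF683 against Mock (TAL1 0.49, LMO1 -0.58 and RUNX1 -0.52, limma adjusted p of 0.0443, 0.0478 and 0.0432), 4 for doxycycline (TAL1 0.42, LMO1 -0.70, GATA3 0.42 and RUNX1 -0.49, limma adjusted p of 0.0321, 0.0136, 0.0152 and 0.0311) and 1 for the difference (MYB 0.61). Under that setting 1166, 1125 and 237 genes passed in all, so the members passed together with many others. Over all settings the TAL1 change ranged from 0.29 to 0.51 and from 0.21 to 1.45 in the 2 comparisons, that of LMO1 from -0.74 to -0.49 and from -0.70 to -0.11.

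The count over all genes was unstable. For ZNF683 against Mock it was 5, and 3 with a pseudocount of 0.1, 0 without a filter, 0 with a mean of at least 5 TPM, 8 with robust moderation, 19 with array weights and 0 to 49 on leaving out 1 library, highest without ZNF683 replicate 1. For doxycycline it was 60, and 0 after scaling, 0 without a filter, 15 with a mean of at least 5 TPM, 23 with robust moderation, 2 with array weights, 0 to 2788 on leaving out 1 library and 0 without Dox- libraries 1 and 2, an alternative chosen after seeing the data. For the difference it was 2, and 1 after scaling, 0 with array weights, 1 to 2550 on leaving out 1 library and 1 without Dox- libraries 1 and 2. Where limma counted 0, the genes at an unadjusted p under 0.05 numbered 3957 and 1456 for the 2 filters in the first comparison, 466, 1082 and 545 for scaling, no filter and the left-out libraries in the second, and 1279 for the weights in the difference. The cause was not tested.

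Signs turned for changes that did not pass. Leaving out 1 library at a time, TCF12 in ZNF683 against Mock ranged from -0.015 to 0.19, and with doxycycline MYB from -0.015 to 0.34, RUNX1 from -0.39 to 0.14, the ratio of TAL1 to GATA3 from -0.070 to 0.40 and that of LMO1 to RUNX1 from -0.28 to 0.0039. In the difference MYB ranged from -0.091 to 0.27 and TCF3 from -0.30 to 0.21. With doxycycline MYB turned to -0.15 after scaling, -0.055 without Dox- libraries 1 and 2 and -0.29 with scaling and weights, and TCF3 to -0.052, -0.13 and -0.17. TCF12 turned to -0.020 without both libraries and ARID5B to -0.21 with scaling and weights. In the difference TCF3 turned to 0.25 with scaling, 0.18 with weights, 0.36 without both libraries and 0.43 with scaling and weights. TAL1 turned to 0.18 without both libraries and 0.070 with scaling and weights, LMO1 to 0.12 with the latter and TCF12 to 0.088 without both. LMO1 to LMO2 turned to 0.048 in ZNF683 against Mock with a pseudocount of 0.1.

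Libraries of the same number deviated together with r of -0.21, 0.07 and -0.25 in the first table and 0.08, 0.05 and 0.36 in the second. Deviations from means of 3 libraries cannot show whether libraries of the same number were paired, and no label states it. With the number as a replicate block 0, 34 and 60 genes passed in the 3 tests and no member did, with 1516 genes at an unadjusted p under 0.05 in the first.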
